A study of Drosophila melanogaster with 9 samples.

Results

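Transcript levels in female flies kept on a restricted diet were compared with those in females on a normal diet. The comparison was between 6 arrays, 3 for each diet, of the 9 in the series. It covered all 8822 genes that passed a filter on low values. The flies were Canton-S, a laboratory wild-type strain with no added allele, and were 10 days old. The labels give the tissue as head and thorax, and each array held RNA pooled from at least 75 females. The remaining 3 arrays came from females of the same strain, sex and age on the normal diet plus resveratrol, a plant polyphenol. They share the strain, sex, age and dissection with both diets and are used below to show where the restricted diet differed from that treatment too. They also entered the filter and the estimate of spread in the fit, so the calls rest in part on them. No source used here states what the diets contained, how long they were fed or how much resveratrol was added. The submitters describe the replicates as biological, and a pool averages its flies, so the spread between arrays says nothing about single flies.

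Dietary restriction lowers the intake of food or of one of its components without starvation, and in flies it is known to change lifespan, egg laying and fat storage. The fat body, the fly's counterpart of liver and adipose tissue, stores triglyceride and secretes storage and yolk proteins. The midgut secretes trypsin-like and chymotrypsin-like serine proteases, lipases and other digestive enzymes and takes up the products. Neurons of the brain and eye make up much of the RNA of the head, and flight muscle much of that of the thorax.

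Values are log2 signals, on which a difference of 1 is a doubling, and lie between 2.12 and 16.39. A probe's signal depends on its sequence, so levels are compared between diets for a given gene and never between genes. A gene passed when its Benjamini-Hochberg adjusted p in limma, two-sided and adjusted over all 8822 genes, was under 0.05. "Rose" and "fell" are used below for such genes, and always mean restricted diet against normal diet. Between 9295 and 9405 of the probe sets that are not controls reached log2 4 on an array, the level used for the filter. Arrays of the normal diet correlated with one another at 0.975 to 0.991 and arrays of the restricted diet at 0.985 to 0.989. Pairs across these diets correlated at 0.935 to 0.986.

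Marker genes were used to check the labelled tissue. All 6 measured neuronal markers, such as the RNA-binding protein gene elav, all 7 of photoreceptors and all 9 of thoracic muscle were detected. None of the 6 markers of the male reproductive tract with a probe set passed the filter. Markers of abdominal organs were detected as well, although the label names head and thorax. They were 13 of 14 germline genes, 12 genes of follicle cells and the eggshell, 4 genes of the Malpighian tubule (the fly's kidney) and 9 midgut genes. The mean level of the 13 germline genes was 6.45, 7.23 and 7.43 on the normal-diet arrays and 8.93, 7.70 and 8.64 on the restricted-diet arrays. Each restricted-diet array was therefore above each normal-diet array. For the eggshell genes the means were 5.33, 7.85 and 6.81 on the normal diet and 10.0, 5.39 and 7.09 on the restricted diet, so that the diets overlapped. Of the 25 germline and eggshell genes, tud, which fell by 0.24, was the gene that passed. In RNA from whole body parts, fewer cells of a type and less RNA per cell cannot be told apart, and this holds for every tissue named below.

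**Figure D1:**
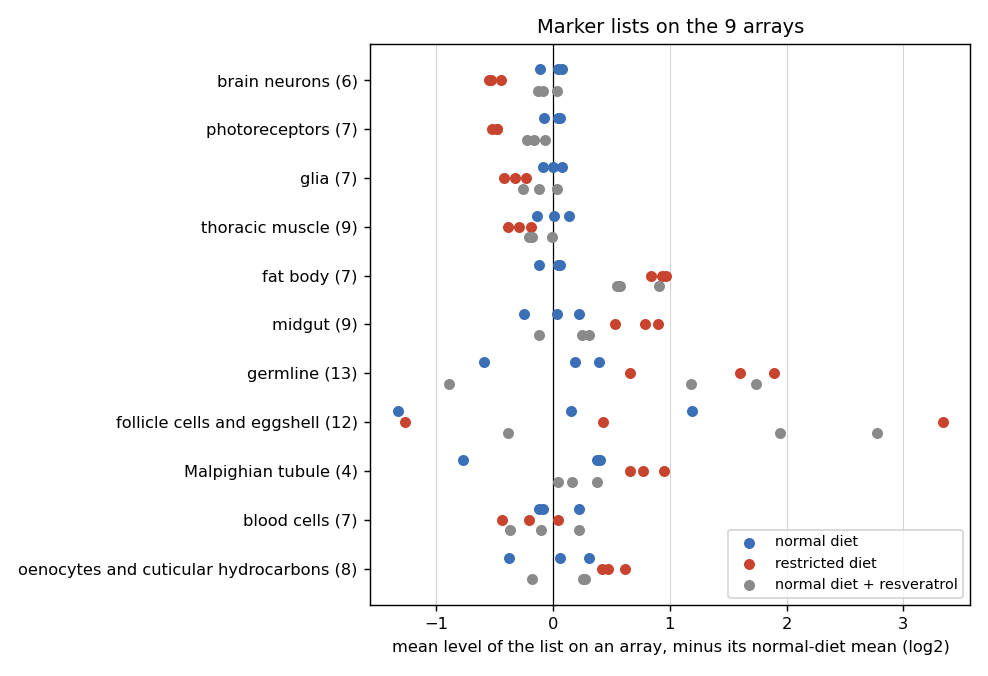
Mean log2 level of each marker list on each of the 9 arrays, as the difference from the list's normal-diet mean, with the number of measured genes in brackets. Each point is an array, blue for the normal diet, red for the restricted diet and grey for the normal diet with resveratrol. The red points lie below the blue ones for brain neurons (10.21 to 10.31 against 10.65 to 10.84) and above them for fat body and germline, and the eggshell points of all diets spread widely.

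More genes were lower than higher on the restricted diet, but the largest changes were rises. Of the 8822 genes, 1604 passed (18.2%): 465 were higher on the restricted diet (5.27%) and 1139 were lower (12.9%). An unadjusted p under 0.05 was reached by 3329 genes. The diets' values were fully separate in 44.8% of the genes, namely 1444 that were higher (16.4%) and 2508 that were lower (28.4%), and the median change over all genes was -0.05. Among the genes that passed, 132 rose by at least 1 log2 unit and 20 fell by at least that much. A change of at least 2 was reached by 53 rises and by 1 fall, and a change of at least 3 by 36 rises and no fall. The median rise was 0.58 and the median fall -0.43.

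The calls depended on single arrays. The number of genes that rose ranged from 107 without normal-diet replicate 1 to 556 without resveratrol replicate 3, and the number that fell from 225 without normal-diet replicate 1 to 1115 without resveratrol replicate 3. Leaving out normal-diet replicate 2 gave 175 rises and 327 falls, restricted-diet replicate 1 gave 144 and 373, and restricted-diet replicate 3 gave 199 and 526. Without restricted-diet replicate 2 there were 301 rises and 1055 falls, and without resveratrol replicate 2 there were 273 and 766. A core of 82 rises (0.929% of the genes) and 198 falls (2.24%) passed in each of the 9 fits that left out 1 array. With the germline mean as a covariate, 27 genes rose and 35 fell. As given above, that mean itself did not overlap between the diets.

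The share of genes that passed was larger, and the median change smaller, at log2 10 to 12 than under 6. Of 1095 genes with a mean level under log2 6, 3.11% rose, with a median of 1.41, and 6.12% fell, with a median of -0.70. Of 1704 genes between 10 and 12, 7.92% rose with a median of 0.45 and 19.3% fell with a median of -0.38. Above 12 the shares were 7.39% and 14.0% of 866 genes.

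**Figure D2:**
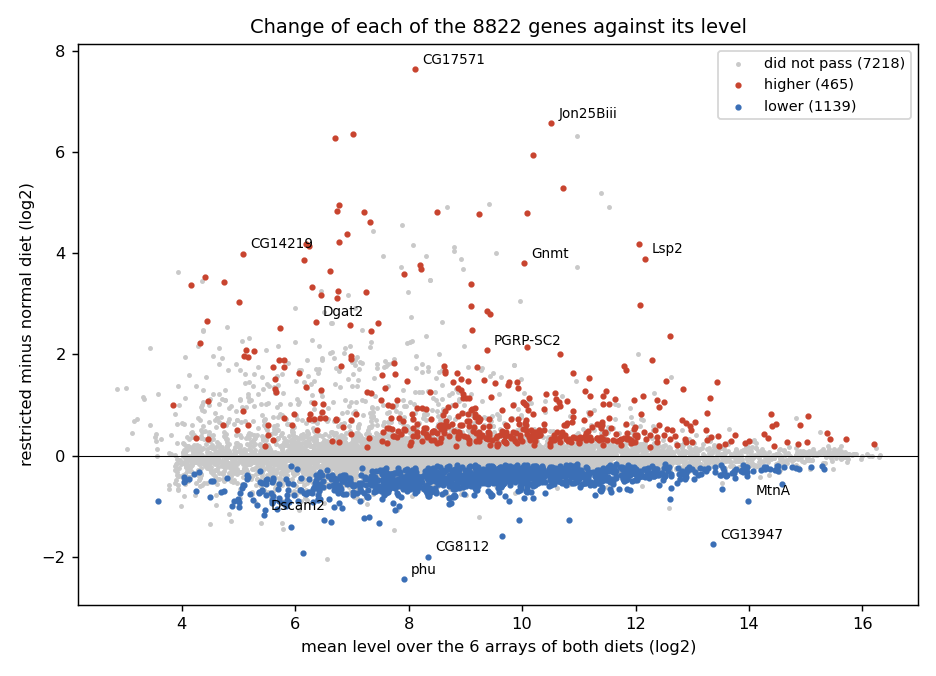
Difference between the restricted and the normal diet (log2, vertical axis) against the mean level over the 6 arrays of both diets (log2, horizontal axis) for each of the 8822 genes. Red genes passed as higher (465), blue as lower (1139) and grey did not pass; rises reach 7.63 in CG17571, and the largest fall is the -2.45 of phu.

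The leading rises were taken from genes that passed with any 1 array left out and whose diets did not overlap. Lack of overlap was thus a condition of the selection, and it held for 44.8% of all genes. These rises included genes of digestion, storage and metabolism. CG17571, a predicted serine protease gene, read 4.21, 3.71 and 4.95 on the normal diet and 12.5, 12.54 and 10.74 on the restricted diet. Every restricted-diet array was far above every normal-diet array. The change was 7.63 ± 0.86 (SE), or 198-fold (adjusted p = 0.00598), and 299-fold without restricted-diet replicate 3. CG14219 was near the floor on the normal diet at 3.04, 3.01 and 3.19, and read 7.23, 6.89 and 7.08 on the restricted diet. Counting from log2 4 in place of its normal-diet mean, it rose at least 8.38-fold (adjusted p = 0.00021). Jon66Ci, a Jonah serine protease gene, read 2.52, 2.34 and 2.59 against 7.17, 4.95 and 5.43, with no overlap. It rose at least 3.60-fold by the same rule (adjusted p = 0.0126), and at least 2.28-fold without restricted-diet replicate 1.

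Lsp2, which encodes a larval serum storage protein made by the fat body, read 10.63, 9.59 and 10.43 on the normal diet and 13.74, 14.08 and 14.5 on the restricted diet. The diets were well separated, and the rise was 14.9-fold (adjusted p = 0.0106). Gnmt encodes glycine N-methyltransferase, which uses up S-adenosylmethionine. It read 7.37, 8.49 and 8.55 against 11.56, 12.27 and 11.99, a 14-fold rise without overlap (3.81 ± 0.45 SE, adjusted p = 0.00648). The gene for the alkaline phosphatase Alp6 read 4.70, 2.56 and 5.42 against 8.80, 8.03 and 7.45. Its rise was 14.6-fold (adjusted p = 0.014), which became 8.21-fold and 22.1-fold when replicate 2 or replicate 3 of the normal diet was left out. With normal-diet values under log2 4 raised to log2 4, the rise of Alp6 was 10.5-fold. CG10182 and CG7381, for which no role is given here, rose 18.3-fold and 12.8-fold. Without normal-diet replicate 2 these folds were 10.6 and 7.96, and without normal-diet replicate 3 that of CG10182 was 29.7. With low values raised as for Alp6, CG10182 was 13-fold higher over all arrays.

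Dgat2 encodes a diacylglycerol acyltransferase, which makes triglyceride. It read 5.29, 4.28 and 5.54 on the normal diet and 7.35, 7.80 and 7.91 on the restricted diet. The groups did not overlap, and the rise was 6.27-fold (adjusted p = 0.00959). On the arrays with resveratrol Dgat2 read 4.89, 5.47 and 5.91, and the restricted diet was 2.26 above that group as well (adjusted p = 0.0413). PGRP-SC2, which encodes a secreted amidase that degrades peptidoglycan, read 8.10, 8.38 and 8.54 against 10.5, 10.48 and 10.28. Each diet's values were close together and far from those of the other diet, and the rise was 4.23-fold (2.08 ± 0.14 SE, adjusted p = 0.00126). It too exceeded the resveratrol group, by 1.25 (adjusted p = 0.0276).

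MsrA encodes methionine sulfoxide reductase, which repairs oxidised methionine. Its 3 normal-diet arrays lay between 10.05 and 10.12 and the restricted-diet arrays at 11.43, 11.87 and 11.85, a 3.10-fold rise (adjusted p = 0.00624). Ctns, the gene for the lysosomal cystine exporter cystinosin, rose 2.76-fold, from 8.05 ± 0.31 to 9.51 ± 0.13 (SD, n = 3 each; adjusted p = 0.00817). Fancl, for the ubiquitin ligase of the Fanconi anaemia pathway of DNA repair, rose 3.92-fold from 4.12 ± 0.40 to 6.09 ± 0.25 (adjusted p = 0.00598). Cyp6a14, a cytochrome P450 gene, rose 3.10-fold, and GstE3, a glutathione S-transferase gene, rose 2.41-fold. The odorant-binding protein genes Obp99a and Obp56a rose 2.21-fold and 2.16-fold. The other genes that the selection rule named among the 25 largest rises were CG11912, CG5246, CG4734, CG14630, CG34166, CG16727, CG10650 and hiro. By measured means their folds were 2.17 (hiro) to 77.9 (CG11912). Of the 25, Jon66Ci, Dgat2, PGRP-SC2, Fancl, MsrA, CG16727, GstE3 and hiro were also higher than with resveratrol, which holds for 0.453% of all genes. The 25 were selected for high values on the same restricted-diet arrays, so their count cannot be weighed against that share.

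**Figure D3:**
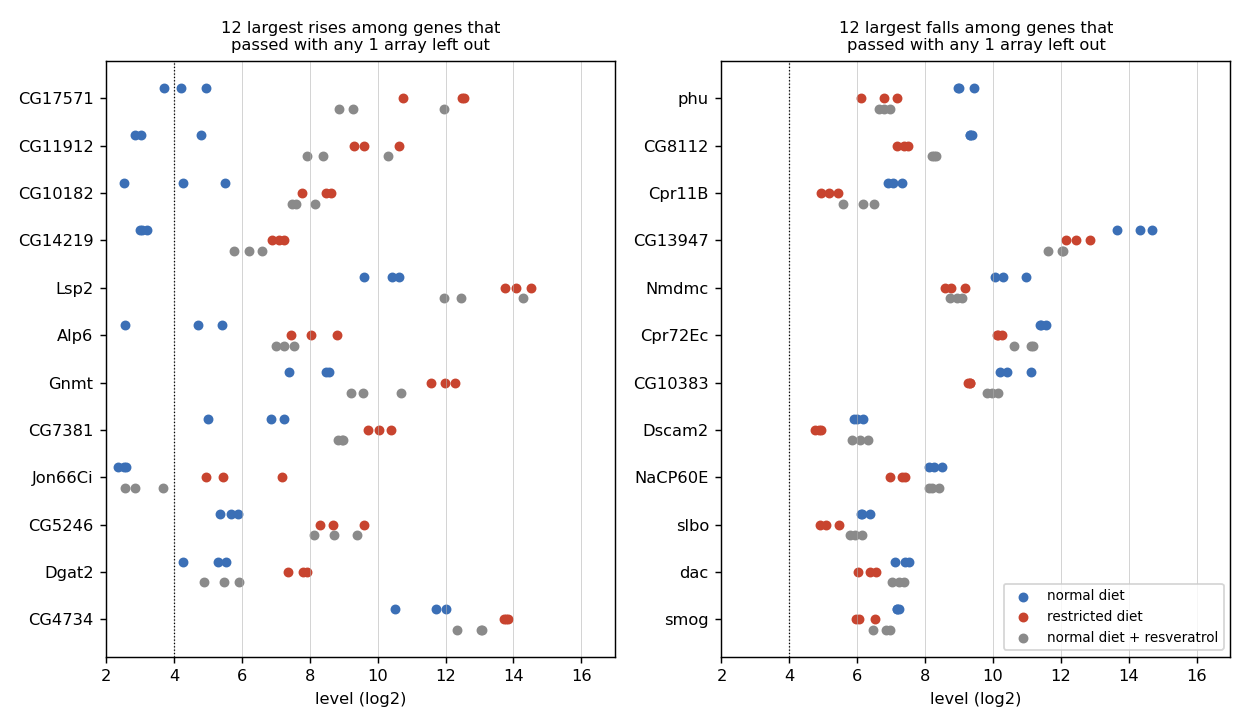
Log2 level on each array for the 12 largest rises (left) and the 12 largest falls (right) among the genes that passed with any 1 array left out, with a dotted line at log2 4. Points are single arrays, blue for the normal diet, red for the restricted diet and grey for the normal diet with resveratrol. Blue and red points do not overlap in any row, a condition of the selection; grey points lie near the red ones for CG10182 and phu and near the blue ones for Jon66Ci, Dgat2 and Dscam2.

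The leading falls, selected under the same conditions, were smaller and included enzymes, cuticle proteins and neuronal genes. The gene phu, which encodes an alkaline phosphatase, read 9.46, 8.99 and 8.96 on the normal diet and 6.78, 6.12 and 7.17 on the restricted diet. The groups were separate, with a 5.45-fold fall (-2.45 ± 0.26 SE, adjusted p = 0.00598), the opposite direction to Alp6. CG8112, a predicted sterol O-acyltransferase gene, read 9.38, 9.33 and 9.33 against 7.18, 7.48 and 7.39. The 3 values of each diet lay close together and did not overlap, with a 3.99-fold fall and the smallest adjusted p among the named genes (9.11e-05). With resveratrol it read 8.33, 8.22 and 8.25, between the diets, and the restricted diet was lower than that group too (-0.92, adjusted p = 0.0255).

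Nmdmc encodes a mitochondrial enzyme that interconverts folate one-carbon units. It read 10.29, 10.06 and 10.98 on the normal diet and 9.19, 8.77 and 8.59 on the restricted diet, with no overlap and a 3.03-fold fall (adjusted p = 0.0121). The resveratrol arrays read 9.10, 8.72 and 8.93 for Nmdmc and differed from the restricted diet by -0.07 (adjusted p = 0.875). MtnA, which encodes a metallothionein that binds copper and zinc, fell 1.85-fold from 14.43 ± 0.04 to 13.54 ± 0.12 (SD, n = 3 each; adjusted p = 0.00598). The cuticle protein genes Cpr11B and Cpr72Ec fell 3.79-fold and 2.43-fold.

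Dscam2 encodes a cell-surface protein that neurons of the visual system use for tiling. It read 6.18, 6.0 and 5.91 on the normal diet, 4.93, 4.75 and 4.88 on the restricted diet, and 5.83, 6.10 and 6.31 with resveratrol. The restricted-diet arrays were apart from both other groups, by -1.18 against the normal diet (adjusted p = 0.00598) and by -1.23 against resveratrol (adjusted p = 0.0276). NaCP60E, a gene of the voltage-gated sodium channel family, read 8.26, 8.51 and 8.12 against 7.32, 7.40 and 6.97, a 2.1-fold fall (adjusted p = 0.00881). Falls were also found in dac, a transcription factor gene of the eye and mushroom bodies (2.04-fold), and slbo, which encodes a C/EBP factor known from migrating border cells of the ovary (2.08-fold). PIP82, a photoreceptor gene (1.77-fold), shf, whose product spreads Hedgehog (1.73-fold), and Nep3, a neprilysin peptidase gene (1.72-fold), fell as well. Of the other genes named by the rule, smog (a G-protein-coupled receptor), Adgf-D (an adenosine deaminase growth factor), Nna1 (a cytosolic carboxypeptidase), CG13947, CG10383, Dtd, CG15765, gammaSnap2, CG2225 and CG4213 had folds of 1.72 (Adgf-D) to 3.36 (CG13947). The remaining ones, nSyb and VAChT, are described with the synaptic genes.

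Among the genes whose restricted-diet mean was above log2 12, the 5 largest changes that passed were the serine protease genes Jon25Biii, CG11911 and CG10472, the sterol-binding protein gene Npc2e, and CG8997. Jon25Biii read 6.53, 4.92 and 10.22 on the normal diet and 14.65, 13.7 and 13.02 on the restricted diet. CG10472 read 8.77, 4.51 and 10.97 against 14.14, 13.31 and 12.65. In both, the normal-diet arrays differed among themselves by over 5 log2 units, with replicate 2 lowest and replicate 3 highest, and still did not overlap with the restricted diet. The fold of Jon25Biii was 94.8 (adjusted p = 0.0166), becoming 42.6 when replicate 2 of the normal diet was left out and 268 when replicate 3 was. That of CG10472 was 39.0 (adjusted p = 0.0448), with 11.3 and 106. CG11911 rose 61.4-fold (13.5 and 214), Npc2e 27.6-fold (11.8 and 50.3) and CG8997 18.2-fold (6.44 and 34.4). None of the 5 passed when replicate 1 of either diet was left out. Omitting restricted-diet replicate 2 or 3, or any 1 resveratrol array, kept 2 calls, and omitting normal-diet replicate 2 kept 3.

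Lists of gut genes, with a list of sterol genes that is not confined to the gut, were described as groups. Of 39 measured genes of the midgut, its secretions and sterol handling, 15 rose and 5 fell, where 5.27% of all genes rose and 12.9% fell. The falls were close to that share, and the median change was 0.66 against -0.05 over all genes. When replicate 1, 2 or 3 of the restricted diet was left out, the counts were 3 and 2, 7 and 4, or 9 and 2. Omitting replicate 1 of the normal diet gave 3 and 2, and omitting replicate 2 gave 5 and 2. PGRP-SC2, Alp6 and phu passed in each of the 9 fits with 1 array left out, as did Npc1a and Hr96 of the sterol list. Against resveratrol 2 of the 39 were higher and 1 was lower.

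Of the 9 midgut markers, 4 rose and 0 fell, where 5.27% of all genes rose and 12.9% fell. The rises were Ptx1, a transcription factor of the middle midgut (1.11, adjusted p = 0.0224), and Ssk, Tsp2A and mesh, whose products build the smooth septate junctions that seal the gut epithelium (0.73, 0.79 and 0.69). Ssk read 9.52, 9.28 and 9.89 on the normal diet and 10.53, 10.31 and 10.04 on the restricted diet, close to each other but not overlapping. Each of these 4 lost its call without normal-diet replicate 1 or 2 or restricted-diet replicate 1 or 2. The mean of the 9 markers was 7.87, 7.59 and 8.06 on the normal diet and 8.74, 8.63 and 8.37 on the restricted diet, so that markers of the gut as a tissue moved with its secreted enzymes. Their part in the result for the enzymes was not tested.

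Among 6 measured lipases of the gut family, 4 rose, where 5.27% of all genes rose and 12.9% fell. CG6296 read 6.49, 4.87 and 6.94 against 9.13, 8.06 and 8.49, a 5.50-fold rise (adjusted p = 0.0196) that was 3.60-fold without normal-diet replicate 2. CG6283 rose 2.85-fold, CG17192 1.58-fold and CG6295, which read about log2 15 on all 6 arrays, 1.21-fold. The largest change in the list was in mag, the magro lipase of the gut lumen, at 4.56, which did not pass (adjusted p = 0.0671). It was 2.97 without normal-diet replicate 2 and 6.10 without replicate 3, where it passed (adjusted p = 0.0211), and its fold of 23.6 ranged from 7.83 to 68.6, with 13.8 and 38.1 when restricted-diet replicate 1 or 3 was left out. Of 8 alkaline phosphatases, Alp5 and Alp6 rose and phu fell. Alp5 read 3.45, 3.01 and 6.05 against 9.01, 8.48 and 7.46, which is 17.7-fold higher (adjusted p = 0.018). With normal-diet values under log2 4 raised to log2 4, the rise of Alp5 was 12.4-fold. Without normal-diet replicate 3, when both remaining normal-diet arrays were under log2 4, it was at least 19.9-fold.

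The 7 measured lysozymes, peritrophins and amidases held 2 rises and 1 fall, where 5.27% of all genes rose and 12.9% fell. Peritrophin-15b, for a chitin-binding protein of the membrane that lines the gut, read 2.75, 2.12 and 3.08 on the normal diet and 6.67, 6.13 and 5.75 on the restricted diet. Counted from log2 4, the rise was at least 4.54-fold (adjusted p = 0.0249). Sterol handling was split, with 3 rises and 3 falls among 9 genes. Npc2e and Npc2d rose, as did Hr96, the gene of a sterol-sensing nuclear receptor (8.04 ± 0.08 to 8.58 ± 0.13, SD, n = 3 each; adjusted p = 0.0126). Npc1a, which encodes the sterol transporter of late endosomes, fell from 9.83, 9.92 and 9.72 to 9.43, 9.45 and 9.31 (adjusted p = 0.0127), and Npc2h and Npc2g fell by 0.47 and 0.18.

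Some genes that lie next to each other passed in the same direction. In 7738 measured genes placed in order along the chromosomes, 5 runs of at least 3 neighbours rose, holding 17 genes, and 22 such runs fell, holding 70 genes. Of all genes 5.27% rose and 12.9% fell, and how many runs unlinked genes would give at these shares was not tested. All of the rising runs except the one with Fancl consisted of serine proteases or lipases, which are known tandem families. On such arrays close relatives may share probe signal, so that members are not fully independent. In the Jon25B group, Jon25Biii rose by 6.57 ± 1.26, Jon25Bii by 1.21 ± 0.30 and Jon25Bi by 1.07 ± 0.28 (SE). Jon25Bi read 9.69, 10.18 and 10.47 on the normal diet, 10.98, 11.21 and 11.36 on the restricted diet and 10.21, 9.56 and 9.21 with resveratrol. The restricted diet was the highest of the 3 groups, and 1.52 above resveratrol (adjusted p = 0.045).

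In the Jon65A group, Jon65Aii rose by 4.81 from 6.72, 2.96 and 8.60 to 12.28, 10.79 and 9.64 (adjusted p = 0.0492). Its neighbours yip7, Jon65Aiv and Jon65Aiii were already at 14.36 to 15.62 on the normal diet and rose by 0.60, 0.45 and 0.33. Such levels are near the top of the measured range, where a rise can be compressed. The run of CG11912, CG11911 and CG33127 rose by 6.28, 5.94 and 2.14, and the run of Fancl, Npc2e and Npc2d by 1.97, 4.79 and 4.38. Of these 17 genes, CG11912 and Fancl passed with any 1 array left out, 2 genes passed when normal-diet replicate 1 was left out and 7 when replicate 2 was. When replicate 1, 2 or 3 of the restricted diet was left out, 3, 7 or 5 passed. Besides Jon25Biii, CG11911 and Npc2e, whose folds without single arrays are given above, that of Jon65Aii moved from 28.1 to 9.5 without normal-diet replicate 2 and 67.0 without replicate 3, and to 17.4 and 43.5 when restricted-diet replicate 1 or 3 was left out. Npc2d moved from 20.8 to 8.71 without normal-diet replicate 2 and to 49.99 without replicate 3, and CG33127 from 4.40 to 2.82 without normal-diet replicate 2. CG11912 was 77.9-fold higher by its measured means. With normal-diet values under log2 4 raised to log2 4, the fold was 47.8 for CG11912 and 13.8 for Npc2d. For CG11912 it was then 36.4 without restricted-diet replicate 1. Without normal-diet replicate 3, when both remaining normal-diet arrays were under log2 4, CG11912 was at least 57.5-fold higher.

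Among the falling runs, ChT, VAChT and ChAT form the cholinergic group, with VAChT nested in the ChAT locus. ChT encodes the choline transporter, ChAT the enzyme that makes acetylcholine and VAChT the carrier that loads it into vesicles. VAChT read 9.22, 9.44 and 8.98 on the normal diet and 8.29, 8.47 and 8.49 on the restricted diet, a fall of 0.80 (adjusted p = 0.0126). ChT fell by 0.63 and ChAT by 0.51, each with no overlap between diets, but neither passed without normal-diet replicate 1. The longest falling run held 5 genes, meru, pHCl-1, sff, Pka-C3 and GXIVsPLA2, with falls of 0.45 (GXIVsPLA2) to 0.70 (meru). Another held ort, Naam and GluClalpha, where ort and GluClalpha encode chloride channels opened by histamine and glutamate; the falls were 0.67, 0.51 and 0.95. Of these 11 genes, VAChT and Pka-C3 passed with any 1 array left out; they were the 2 that passed without normal-diet replicate 1, while 5 passed when normal-diet replicate 2 was left out and 4 or 7 when restricted-diet replicate 1 or 3 was.

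**Figure D4:**
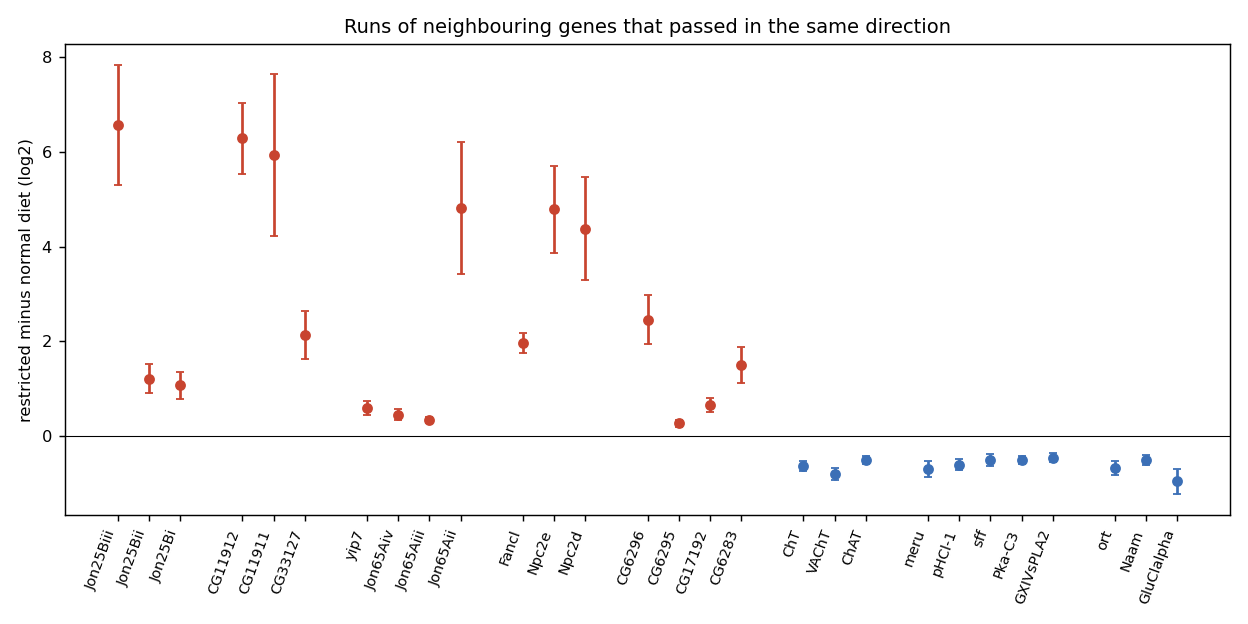
Difference between the restricted and the normal diet (log2, points, with SE bars) for genes in 8 runs of neighbouring genes that passed in the same direction, red for higher and blue for lower, with a gap between runs. The run with Jon65Aii holds changes from 0.33 to 4.81, whereas the falling runs shown stay between -0.45 and -0.95.

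Among the groups of lists, the nervous system and eye gave the most uniform pattern. Of 166 measured genes of neurons, photoreceptors, transmission, channels, synaptic vesicles, adhesion and neuropeptides, 91 fell and 0 rose, where 12.9% of all genes fell. Their median change was -0.42, against -0.05 over all genes, and 160 had a negative change. Leaving out normal-diet replicate 1 left 19 falls, normal-diet replicate 2 left 27, restricted-diet replicate 1 left 30 and restricted-diet replicate 3 left 35. Against resveratrol 22 of the 166 were lower on the restricted diet and 0 were higher, with a median of -0.34, where 2.09% of all genes were lower. Both comparisons share the restricted-diet arrays.

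The neuronal and photoreceptor markers, which are among the 166 genes, fell as well. Of them nSyb and brp are also members of the synaptic vesicle list, so markers and genes of function are not separate sets. All 6 neuronal markers fell, with a median of -0.45, and elav fell from 11.01, 11.01 and 10.83 to 10.50, 10.36 and 10.41 (adjusted p = 0.00817). All 7 photoreceptor markers fell, with a median of -0.50. Among them inaC, which encodes the eye's protein kinase C, fell from 10.51 ± 0.13 to 9.80 ± 0.03 (SD, n = 3 each; adjusted p = 0.00598), and trp, the light-gated calcium channel, from 11.54 ± 0.13 to 10.98 ± 0.07 (adjusted p = 0.00872). Of 7 glial markers 3 fell and of 9 muscle markers 3 fell, with medians of -0.31 and -0.27, where 12.9% of all genes fell. Both counts were 0 when normal-diet replicate 1 or 2 or restricted-diet replicate 1 or 3 was left out, and that of muscle also without restricted-diet replicate 2. Changes were negative in 6 of the 7 glial markers and in all 9 of muscle, so negative changes were not particular to neurons and eye. All 7 measured blood cell markers were negative too, with a median of -0.22, and none of them passed. The neuronal mean was 10.80, 10.84 and 10.65 on the normal-diet arrays, 10.21, 10.31 and 10.23 on the restricted diet and 10.63, 10.67 and 10.79 with resveratrol. The germline means of the same arrays were 6.45, 7.23 and 7.43, then 8.93, 7.70 and 8.64, then 8.78, 8.22 and 6.15. Within each group the array with the highest germline mean had the lowest neuronal mean. For the eggshell mean this held on the restricted diet and with resveratrol, but not on the normal diet. The part of the germline and eggshell markers in the neuronal result was not tested.

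For transmitters, 10 of 16 genes of synthesis, loading and uptake fell and 15 of 24 receptor genes fell, with medians of -0.47 and -0.55. Over all genes 12.9% fell. Besides the cholinergic genes, the falls included Hdc, the enzyme that makes the photoreceptor transmitter histamine (-0.49, adjusted p = 0.0145), Ddc, which makes dopamine and serotonin (-0.40), and the glutamate transporter gene Eaat2 (-0.44). The largest change of this list, in e (ebony, which conjugates histamine and dopamine), was -1.08 and did not pass (adjusted p = 0.127). Of the receptors, Rdl, the GABA-gated chloride channel, read 9.81, 9.71 and 9.56 on the normal diet and 9.24, 9.29 and 9.18 on the restricted diet, a fall of 0.46 with no overlap (adjusted p = 0.0126). GABA-B-R3 fell by 0.73, the nicotinic receptor gene nAChRalpha7 by 0.99, and the dopamine receptor genes Dop1R1 and DopEcR by 0.98 and 0.93. VAChT, Rdl and GABA-B-R3 passed with any 1 array left out; nAChRalpha7, Dop1R1 and DopEcR did not pass without normal-diet replicate 1, nor did Hdc, Ddc and Eaat2, which also did not pass without normal-diet replicate 2.

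Excitability and release followed the same direction, with 11 of 22 channel genes and 15 of 22 genes of the synaptic vesicle cycle lower. Over all genes 12.9% fell. The voltage-gated sodium channel gene para fell from 6.89, 6.94 and 6.47 to 5.95, 5.92 and 5.69 (adjusted p = 0.0144), and its call was lost without normal-diet replicate 1. With resveratrol para read 6.63, 7.06 and 7.04, and the restricted diet was 1.05 lower than that group (adjusted p = 0.039). The calcium channel subunit gene stj fell by 0.59, the calcium-activated potassium channel gene SK by 0.38 and the potassium channel subunit gene Hk by 0.56.

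At the synapse, nSyb, the vesicle SNARE of neurons, read 10.19, 10.24 and 9.89 against 9.27, 9.36 and 9.28, a 1.75-fold fall (adjusted p = 0.0121). Rim and brp, which build the active zone, fell by 0.60 and 0.41, unc-13, which primes vesicles, by 0.41, and nwk, an adaptor of synaptic growth, by 0.45. All of these but para and nwk passed with any 1 array left out, and nwk did not pass without normal-diet replicate 1 or 2 or restricted-diet replicate 1. Of the largest changes that did not pass, the calcium channel gene Ca-beta had -0.76 (adjusted p = 0.0659) and Rbp had -0.48 (adjusted p = 0.0572).

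Of 46 genes of neuronal adhesion and guidance 21 fell, with a median of -0.47, and of 26 neuropeptide genes 9 fell, with a median of -0.31. Over all genes 12.9% fell. The immunoglobulin-domain genes dpr18, dpr17, dpr19 and beat-Vb fell by 0.69, 0.45, 0.70 and 0.89. Pal2, an enzyme of peptide amidation, fell by 0.72 (10.45 ± 0.15 to 9.73 ± 0.15, SD, n = 3 each; adjusted p = 0.00988). The diuretic hormone genes Dh44 and Dh31 fell by 0.55 and 0.41, Ms, which encodes myosuppressin, by 0.41, and 7B2, the helper of a prohormone convertase, by 0.36. Dscam2 and Pal2 were the 2 of these 10 adhesion and peptide genes that passed with any 1 array left out. Leaving out normal-diet replicate 1 or 2 kept 2 calls, restricted-diet replicate 1 kept 3 and restricted-diet replicate 3 kept 4.

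**Figure D5:**
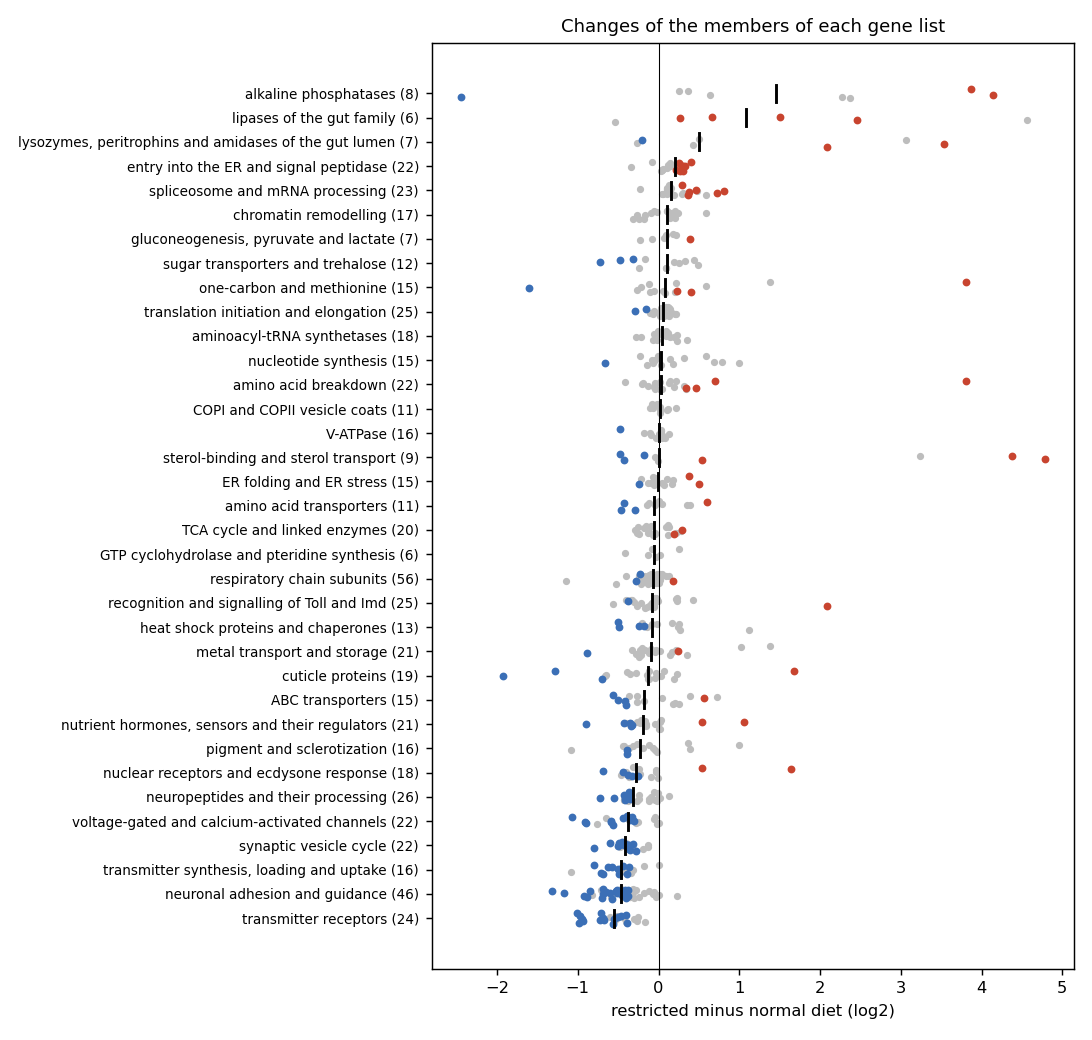
Difference between the restricted and the normal diet (log2) for every measured member of each process list, with the number of measured genes in brackets and the list's median as a black bar. Red points rose, blue points fell and grey points did not pass; vertical scatter within a row carries no value. The neuronal lists lie at the bottom, with medians of -0.31 to -0.55 and no red point, and the lists of gut enzymes at the top.

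Fat body genes were higher in part. Over all genes 5.27% rose and 12.9% fell, and of 7 measured fat body markers 4 rose and 0 fell. Besides Lsp2 they were fit, a secreted peptide gene known to respond to feeding (0.78, adjusted p = 0.00768), Obp99b (1.39, adjusted p = 0.0247) and the yolk protein gene Yp2 (0.23, adjusted p = 0.0369). The related Yp1 and Yp3 had changes of 0.0049 and 0.15, and neither passed. The lipid carrier gene apolpp differed by -0.010. Of the fat body markers, Lsp2 and fit passed with any 1 array left out, Obp99b did not pass without normal-diet replicate 1 or 2 or restricted-diet replicate 3, and Yp2 passed in 3 of the 9 fits, those without normal-diet replicate 3 or resveratrol replicate 1 or 3. Yp2 read 16.04 to 16.39 on the 6 arrays, at the top of the measured range.

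Of 21 genes of nutrient hormones, sensors and their regulators, 5 fell and 2 rose, where 12.9% and 5.27% of all genes did, and the median was -0.19. Leaving out normal-diet replicate 1 left 1 fall and 1 rise, normal-diet replicate 2 left 2 and 0, restricted-diet replicate 1 left 2 and 0, and restricted-diet replicate 3 left 4 and 0. InR, the insulin receptor gene, read 10.11, 10.58 and 9.98 on the normal diet and 9.43, 9.43 and 9.11 on the restricted diet, a 1.87-fold fall (adjusted p = 0.0159). Its substrate gene chico read 9.61, 9.64 and 9.53 against 9.23, 9.17 and 9.10, a 1.34-fold fall (adjusted p = 0.00959). Neither overlapped between the diets. The transcription factor gene foxo, which insulin signalling restrains, fell by 0.34 (adjusted p = 0.0203), and Crtc, the CREB coactivator gene, by 0.35. SREBP, the regulator of lipid synthesis, fell by 0.32.

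Ilp5, an insulin-like peptide gene of brain neurosecretory cells, rose from 7.65, 7.41 and 7.28 to 7.96, 7.92 and 8.08 (adjusted p = 0.0211). It was also high with resveratrol, at 8.2, 7.91 and 8.14. The glucosidase gene tobi, a known target of insulin and adipokinetic hormone, rose from 12.19, 11.47 and 12.24 to 12.73, 13.2 and 13.16 (adjusted p = 0.0425). The hormone gene Akh itself had -0.41 and did not pass (adjusted p = 0.171). Nuclear receptors and ecdysone response genes held 5 falls and 2 rises among 18, where 12.9% and 5.27% of all genes fell and rose. Their median was -0.28, and the falls dropped to 0 when normal-diet replicate 1 or 2 or restricted-diet replicate 3 was left out. MsrA, an ecdysone-induced gene, and Hr96 rose. The juvenile hormone receptor gene Met fell by 0.69, the repressor gene Kr-h1 by 0.38, Hr39 by 0.33, Eip93F by 0.44 and usp, the partner of the ecdysone receptor, by 0.25. Kr-h1 stood 0.60 above its level with resveratrol (adjusted p = 0.0413).

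Of these 14 named genes of nutrient and hormone signalling, chico, MsrA and Hr96 passed with any 1 array left out. The number was 4 when either replicate 1 or replicate 2 of the normal diet was left out. It was 5 or 6 when restricted-diet replicate 1 or 3 was, and 8 without resveratrol replicate 2. InR did not pass without normal-diet replicate 1.

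Amino acid metabolism changed in single genes, and the list medians stayed near that of all genes, of which 5.27% rose and 12.9% fell. Of 22 genes of amino acid breakdown 4 rose (median 0.03), and of 15 genes of one-carbon and methionine metabolism 3 rose and 1 fell (median 0.08). Besides Gnmt, the rises were Oat, which converts ornithine (9.71 ± 0.15 to 10.42 ± 0.10, SD, n = 3 each; adjusted p = 0.0209), Cth, which makes cysteine from cystathionine (0.46, adjusted p = 0.0166), Hibch of valine breakdown (0.34), CG10621 (0.40) and Sam-S, the S-adenosylmethionine synthetase gene (0.23). Nmdmc was the fall. Of 11 amino acid transporters, slif rose by 0.60 (adjusted p = 0.0263), and CG7888, sbm and tadr fell by 0.43, 0.29 and 0.46. Ts, the thymidylate synthase gene, had 1.38 and did not pass (adjusted p = 0.0511). Gnmt and Nmdmc passed with any 1 array left out, and were the 2 of these 11 that passed when replicate 1 or 2 of the normal diet or replicate 1 of the restricted diet was left out; 6 passed when restricted-diet replicate 3 was.

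Of 22 genes of entry into the endoplasmic reticulum and signal peptidase 8 rose and 0 fell, where 5.27% of all genes rose, and the median was 0.20. Omitting normal-diet replicate 1 or 2 left 0 rises, and omitting restricted-diet replicate 1 or 3 left 1. Sec61beta, a subunit of the translocation channel, rose from 13.07, 13.08 and 13.17 to 13.39, 13.44 and 13.41 (adjusted p = 0.0147). The change is small, 0.31, but the diets were apart by more than their spread. Sec61gamma (0.40), Sec61alpha (0.26), TRAM (0.33), twr of the signal peptidase (0.27) and the oligosaccharyltransferase genes OstDelta (0.29), Stt3B (0.30) and Ostgamma (0.21) rose too.

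There were 2 rises and 1 fall among 15 genes of folding and stress in the endoplasmic reticulum, where 5.27% of all genes rose and 12.9% fell. The difference between this list and that of entry was not tested. Manf, a secreted stress factor, rose by 0.38, CaBP1, a protein disulfide isomerase gene, by 0.50, and the stress sensor gene Ire1 fell by 0.24. Of 11 genes of the vesicle coats COPI and COPII none passed, with a median of 0.02 (largest, Sec13, 0.22, adjusted p = 0.119). None of the 48 measured genes of the pathway passed in all 9 fits with 1 array left out. Of the 11 named genes 0 passed when normal-diet replicate 1 was left out, 1 when its replicate 2 was, and 2 or 3 when restricted-diet replicate 1 or 3 was.

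Among all genes tested 5.27% rose and 12.9% fell. Of 95 genes of the TCA cycle, pyruvate metabolism, the respiratory chain and the V-ATPase, 4 rose and 3 fell, with a median of -0.05. Without normal-diet replicate 1 or 2 there were 1 rise and 0 falls, and 1 rise remained when any restricted-diet array was left out, beside 1, 6 or 0 falls for replicate 1, 2 or 3. Men, the malic enzyme gene that supplies NADPH, read 13.26, 13.25 and 13.27 against 13.63, 13.71 and 13.62, a rise of 0.39 (adjusted p = 0.0109) that passed with any 1 array left out. Mdh1 and Idh rose by 0.20 and 0.29. Of 56 respiratory chain genes 1 rose (COX7A, 0.18) and 2 fell (COX7AL2, 0.27; ND-51, 0.23). UQCR-11L had -1.15 and did not pass (adjusted p = 0.0518). Of 16 V-ATPase genes, VhaM9.7-a fell by 0.48.

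Of 18 aminoacyl-tRNA synthetases none passed (median 0.04), and of 25 factors of initiation and elongation 2 fell, eEF1alpha2 by 0.29 and eIF4B by 0.16. The call of eIF4B was lost in each of the 9 fits with 1 array left out, and that of eEF1alpha2 without normal-diet replicate 1 or 2 or restricted-diet replicate 1. Of 23 splicing genes 6 rose, where 5.27% of all genes did, and 22 had a positive change (median 0.16). SmD3, of the spliceosome core, rose from 8.95, 9.03 and 9.20 to 9.99, 9.58 and 9.79 (adjusted p = 0.0264), SmF by 0.81, SmB by 0.47, SNRPG by 0.36, SF2 by 0.37 and Prp8 by 0.29. None of the 6 passed without normal-diet replicate 1 or 2 or restricted-diet replicate 1 or 3. The SmD3 level with resveratrol was 9.64, 9.40 and 9.02, spanning much of the range of both diets. The germline means given above were higher on each restricted-diet array, and their part in the result was not tested. Among 17 chromatin remodelling genes none passed (median 0.11).

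The remaining lists held scattered changes. Their counts, here and in the next paragraph, stand against 5.27% of all genes that rose and 12.9% that fell. Those of the cuticle genes were close to these shares. Of 19 measured cuticle genes 3 fell, Cpr11B, Cpr72Ec and Cpr66D, and 1 rose, Cpr49Ab, from 8.06, 6.71 and 8.64 to 9.62, 9.48 and 9.34. Of 13 heat shock and chaperone genes 4 fell, the cochaperone gene stv by 0.50, Hsc70-1 by 0.49, DnaJ-1 by 0.24 and Droj2 by 0.18; Hsp27 had 1.12 and did not pass (adjusted p = 0.484). Of 25 genes of Toll and Imd recognition and signalling, PGRP-SC2 rose and PGRP-LA fell by 0.38. Rel, the NF-kappaB factor of the Imd pathway, had -0.56 (adjusted p = 0.0546). Of 21 metal genes the zinc transporter gene ZnT86D rose by 0.25 and MtnA fell.

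Of 15 ABC transporters 4 fell, Atet (0.56), CG31689 (0.41), CG4822 (0.50) and Mdr65 (0.41), and CG5853 rose by 0.56. Of 12 sugar transporter and trehalose genes 3 fell, namely Glut1, the glucose transporter gene (8.62, 9.04 and 8.61 against 8.03, 8.18 and 7.88, 1.66-fold lower, adjusted p = 0.0176), CG1208 by 0.47 and the trehalose transporter gene Tret1-1 by 0.31. Of 15 nucleotide synthesis genes, Prat2, which begins purine synthesis, fell by 0.66 (12.17 ± 0.12 to 11.51 ± 0.08, SD, n = 3 each; adjusted p = 0.00959). Of 16 pigment and sclerotization genes Ddc and yellow-f fell by 0.40 and 0.38. None of 6 pteridine genes passed, and TotC, the measured Turandot stress gene, had 0.20 (adjusted p = 0.917). Cpr72Ec, Cpr11B, stv, PGRP-SC2, MtnA, Atet, CG31689 and Prat2 passed with any 1 array left out. The other 15 genes of these lists did not, and 1 of them passed without normal-diet replicate 1.

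Against resveratrol, 24 of the 465 genes that rose were also higher on the restricted diet and 165 of the 1139 that fell were also lower. Over all genes 40 (0.453%) were higher and 184 (2.09%) lower on the restricted diet than with resveratrol. The median of the rises against resveratrol was 0.32 and that of the falls -0.30. For the 82 rises that passed with any 1 array left out the median was 0.39, with 21 passing, and for the 198 such falls -0.34, with 87 passing. These contrasts share the restricted-diet arrays with the comparison of the diets. Resveratrol against the normal diet gave 20 genes (0.227%).

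Second probe sets gave a check within the arrays. The 129 genes that passed and had further measured probe sets held 187 of these. Of them 178 changed in the direction of the gene's first probe set, and 79 passed in that direction. A single one, of SF2, passed in the opposite direction (-0.31, adjusted p = 0.0239, against 0.37), so that its rise depends on the probe set read.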

How the data were processed

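RNA was hybridised to Affymetrix Drosophila Genome 2.0 arrays. Per the labels' protocols, total RNA was extracted with Trizol, cleaned on RNeasy columns, and 5 µg entered one-cycle labelling. The authors deposited log2 values per probe set, made with GCRMA, per the submitters' processing notes; GCRMA corrects background by probe sequence and normalizes between arrays, which widens folds near the floor. Its version is not given in the sources used here, and the scale was inferred from the range. Control probe sets (183 of 18952) were left out. Probe sets were kept if they reached log2 4 on at least 3 arrays (9401), and the set with the highest mean stood for a gene, giving 8822. Of these 7759 named 1 gene, 234 several and 829 none. Symbols come from the platform annotation, updated through a gene table of fly Release 6 that held 13544 of the 13647 probe sets naming 1 gene. Probes of related genes may cross-hybridise.

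A mean per diet was fitted over all 9 arrays in limma 3.58.1 under R 4.3.3, with empirical Bayes moderation (6 residual and 1.81 prior degrees of freedom). The threshold was 0.05 for the Benjamini-Hochberg adjusted p, with no minimum fold. Adjusted p values are limma's throughout, SE is that of the fitted difference, and the number of arrays limits the precision. Where the lower group lay under log2 4 on all its arrays, a fold is a bound against log2 4. The fit was run on simulated data in which genes varied independently. That run does not cover deviations shared by many genes on an array.

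The comparison, the gene lists and the rule for named genes were chosen with earlier results of these data known, so counts over lists are descriptions. The rule named 25 genes each way with the largest changes among genes that passed in the full fit and in all 9 fits without 1 array and whose diets did not overlap. It also named up to 5 genes with the smallest p in each process list with the largest change that did not pass, the marker lists, the 5 largest changes among genes above log2 12 on the restricted diet, and members of runs of at least 3 neighbours. The text gives the leading ones. After the annotation was read, dhd and gcm were taken out of lists they did not belong to. Replicate numbers were checked for pairing: not every same-numbered pair of arrays deviated together, so the numbers were not used as pairs. Alternatives covered normalization, filters, the probe set of a gene, the variance model, the threshold, the arrays fitted, a replicate block, a germline covariate and leaving out each array.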

Additional observations from a re-analysis of the deposited data

How the results depend on the processing

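The counts of 465 rises and 1139 falls stayed within 1.5 times their size under quantile normalization (489 and 975), a common median (477 and 992), filters at log2 5 (484 and 1187) or on the 6 arrays (473 and 1160), all probe sets (488 and 1299), the mean of probe sets (466 and 1147), the trend (523 and 1270) and robust (458 and 1138) options, and a fit of only the 6 arrays (398 and 862). They dropped to 44 and 83 at an adjusted p under 0.01, to 129 and 469 with no filter, to 238 and 693 with the replicate number as a block, and to 27 and 35 with the germline covariate. The first follows from the stricter threshold; the cause of the others was not tested. The replicate number is only a number here: deviations of same-numbered arrays correlated at -0.23, -0.193 and -0.262 between the normal and restricted diets, at -0.265, 0.102 and -0.328 between the normal diet and resveratrol, and at 0.399, -0.182 and -0.043 between the restricted diet and resveratrol, and no normal-diet array matched its own number best. Leaving out 1 array gave 107 to 556 rises and 225 to 1115 falls.

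Of 251 named genes outside the marker lists 216 passed. None of these 216 reversed direction in the alternatives checked, which did not include the germline covariate or the fit of all probe sets. The trend and robust options, the fit of 6 arrays, the block and leaving out a resveratrol array cannot alter a gene's change. Among the genes that did not pass a direction could reverse: TotC ranged from -0.89 to 1.07 when 1 array was left out. Calls were lost for 19 genes under quantile normalization, 14 with a common median, 102 with no filter, 47 in the fit of 6 arrays, 65 with the block, 134 or 115 when normal-diet replicate 1 or 2 was left out, and 116 when restricted-diet replicate 1 was. Over 47 lists, 888 of 893 medians under an alternative stayed within 1 SD of the reported one. That SD was the larger of the diets' SDs of the list's array medians. The 893 include the alternatives that cannot alter a change, so their number is no measure of stability. The median of the eggshell genes, 0.97, became -0.22 without normal-diet replicate 1 and -0.65 without restricted-diet replicate 1. Pools of flies from 3 samples a diet, background correction near the floor and a ceiling near 16.39 limit small and extreme changes.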
